A study of Mus musculus with 3 samples.

Results

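The MYB genes of the mouse are Mybl1 (A-MYB), the transcription factor that the series is about, and its paralogs Myb (c-MYB) and Mybl2 (B-MYB). They were found by their symbols in a table of transcript models from mouse testis, together with any model that overlapped them on either strand. The table gave 50081 models and 22428 genes, a gene being a symbol on 1 chromosome and strand with at least 1 model taken from RefSeq. Of these models, 9 carried a MYB symbol: 3 for Mybl1, 2 for Myb and 4 for Mybl2. No model of another name overlapped any of them.

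The series held 3 libraries, all from testes of wild-type C57BL/6J mice: CAGE, a method that sequences capped 5′ ends, at 10.5 days post partum and in adults, and PAS-Seq, a method for 3′ ends that carry a poly(A) tail, in adults. Each group was a single library of total RNA. The table had no value per library, so no level, no difference between ages and no test over samples could be had, and the depth of each library is unknown. What follows describes positions, exons and lengths.

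MYB proteins are transcription factors with a DNA-binding domain near their N terminus, made of tandem repeats called R1, R2 and R3, which binds sites with the core AACNG. In vertebrates the family has 3 members. c-MYB is known for its role in blood progenitor cells, and B-MYB works with the MuvB complex to switch on genes of late cell cycle in dividing cells. A-MYB is known from male germ cells, where it is needed for meiotic prophase and switches on genes of the pachytene piRNA pathway and the precursors of piRNAs themselves.

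Models were of 2 relevant kinds. RefSeq-derived models carried a RefSeq identifier, and CUFF models carried an identifier of the Cufflinks form beside the gene symbol. A further column held a short code, here NM or XX, that the sources used here do not explain. A RefSeq-derived model in the table is no measure of expression, and how the 3 libraries shaped the CUFF models is not given. Positions are in the mm9 build, counted from 1.

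Mybl1 lay on the minus strand of chromosome 1 and had 1 RefSeq-derived and 2 CUFF models, all coded NM. The RefSeq-derived model ran over chr1:9658916-9690290 in 16 exons, with a spliced length of 3560 nt. CUFF.29.1 ran over chr1:9657610-9690681 in 15 exons with 5077 nt, and CUFF.29.2 over chr1:9657610-9688765 in 16 exons with 4613 nt. The 3 models thus had 3 different starts, and the CUFF models shared an end that RefSeq did not have.

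The starts of Mybl1 spanned the first exon and the first intron. RefSeq placed the start at 9690290. CUFF.29.1 started at 9690681, 391 bp further upstream, and its first exon of 666 nt ran without a break into the RefSeq first exon of 275 nt. CUFF.29.2 started at 9688765, which is 1525 bp downstream of the RefSeq start and 1251 bp into the RefSeq first intron of 6542 bp. Its first exon, chr1:9688744-9688765, had 22 nt and overlapped no RefSeq exon. An intron of 5270 bp joined it to the RefSeq second exon, so that this model lacked the annotated first exon and kept the other 15, the last of them lengthened. So short a first exon was uncommon: 131 of 8558 CUFF models with a gene symbol and at least 2 exons (1.53%) had one of at most 22 nt, against a median of 248 nt. The share was 0.589% for RefSeq-derived models.

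At the 3′ end, both CUFF models ended at 9657610, 1306 bp beyond the RefSeq end at 9658916. The last exon, which began at the same splice site in all 3 models, had 2484 nt in the CUFF models and 1178 nt in RefSeq, 2.11-fold. Among all genes, 1696 of 22428 (7.56%) had a CUFF end more than 50 nt beyond every RefSeq end. A CUFF model was present for 6387 genes (28.5%), and only these could count here and in the like shares below. The extension of Mybl1 was of ordinary size among them: the median was 1259 nt (quartiles 418 and 3277), and 51.1% were shorter.

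CUFF.29.1 also skipped an exon. An intron of 2199 bp joined RefSeq exon 14 straight to exon 16 and passed over exon 15, chr1:9661660-9661839, of 180 nt. This was the only intron of the model that RefSeq did not hold, and the other 13 were identical in both ends. CUFF.29.2 kept exon 15 and shared 14 of its 15 introns. The skipped exon has a length divisible by 3, so that a reading frame through it, if it lies in coding sequence, would be kept. The table gives no coding region. A skipped RefSeq exon was found in CUFF models of 472 of 22428 genes (2.10%). Of 605 exons skipped in this way, 376 (62.1%) had a length divisible by 3, compared with 40.2% of 164821 internal RefSeq exons.

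**Figure D1:**
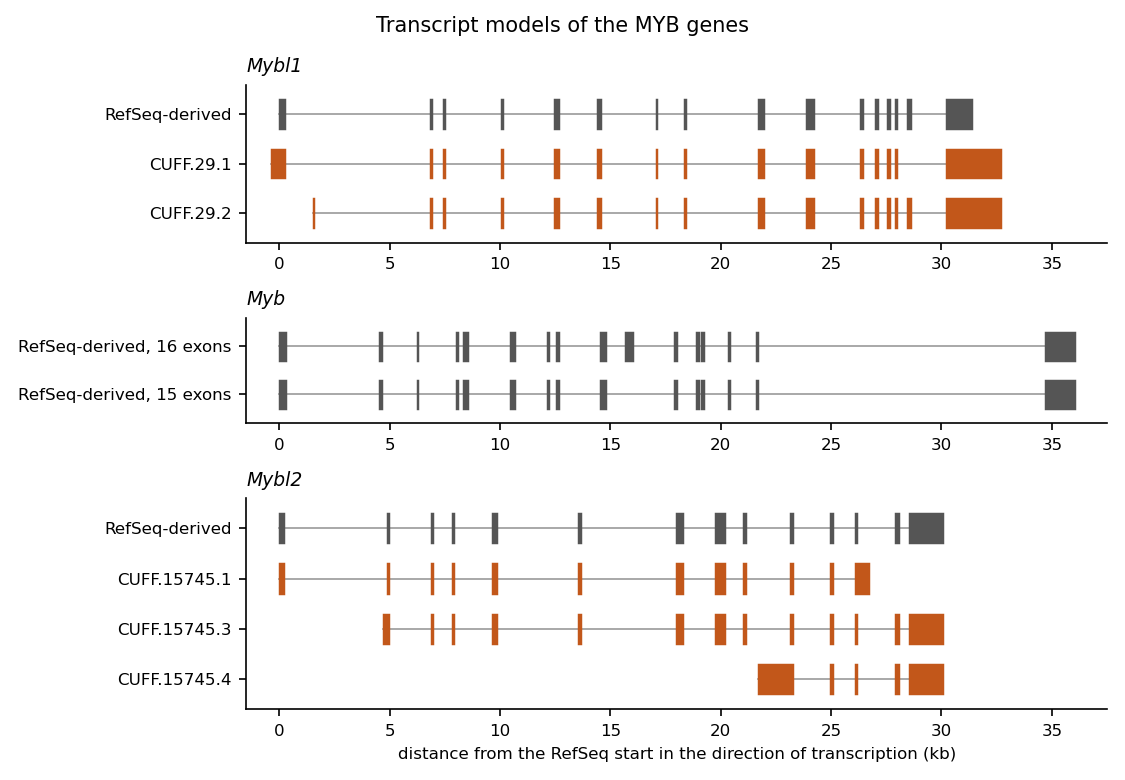
Exons (boxes, with a thin outline that makes the shortest ones visible) and introns (lines) of the 9 models, by distance in kb from the RefSeq start in the direction of transcription. RefSeq-derived models are grey and CUFF models orange. Mybl1 gained an upstream start, a start within intron 1 and a longer last exon, Mybl2 had starts and an end inside the gene, and Myb had RefSeq-derived models alone.

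Mybl2 lay on the plus strand of chromosome 2 and had 1 RefSeq-derived and 3 CUFF models. The RefSeq-derived model, coded NM, ran over chr2:162880371-162910423 in 14 exons and 3702 nt. All the CUFF models of Mybl2 stayed within that span, unlike those of Mybl1. All their introns, 11, 12 and 4 in number, were RefSeq introns, so that they differed from RefSeq in starts and ends and in no splice junction.

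CUFF.15745.1, coded NM, kept the RefSeq start and ended early. It had 12 exons and 2537 nt and ended at 162907065, 3358 bp upstream of the RefSeq end and 507 bp into intron 12, which is 1727 bp long. Its last exon of 612 nt began as RefSeq exon 12 (105 nt) and read on into the intron. It lacked RefSeq exons 13 and 14, of 150 and 1522 nt. A CUFF end more than 50 nt upstream of every RefSeq end was found for 3078 of 22428 genes (13.7%).

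The other CUFF models of Mybl2 started inside the gene and kept the RefSeq end. CUFF.15745.3, coded NM, had 13 exons and 3639 nt and started at 162885086, 4715 bp downstream of the RefSeq start. That start lay 4502 bp into intron 1, close to its end, and the first exon of 245 nt ran 151 nt ahead of RefSeq exon 2 and then through it. CUFF.15745.4, coded XX, had 5 exons and 3471 nt and started at 162902046, 21675 bp downstream of the RefSeq start and 535 bp into intron 9. Its first exon of 1580 nt ran through the rest of that intron into RefSeq exon 10. Of all genes, 2903 (12.9%) had a CUFF start more than 50 nt downstream of every RefSeq start, as Mybl1 and Mybl2 did. In the other direction, 2350 (10.5%) had one more than 50 nt upstream of every RefSeq start, which among the MYB genes held for Mybl1 alone.

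Myb lay on the minus strand of chromosome 10 and had 2 RefSeq-derived models, both coded XX, and no CUFF model. Both ran over chr10:20844736-20880790 with the same start and the same end. The longer had 16 exons and 3777 nt and the shorter 15 exons and 3420 nt. They differed by exon 10 of the longer model, chr10:20864775-20865131, of 357 nt, which is also divisible by 3. The table thus held nothing for Myb beyond the annotation.

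A code other than XX was carried by at least 1 model of Mybl1 and of Mybl2, as it was for 62.3% of all genes. A CUFF model was present for Mybl1 and Mybl2 and for 28.5% of all genes, or for 39.4% of the 13970 genes with a code other than XX. Counting positions within 50 nt of each other as 1, Mybl1 and Mybl2 each had 3 starts and 2 ends, and Myb had 1 of each. At least 2 starts were found for 26.6% of all genes and at least 2 ends for 23.0%. Among genes with a code other than XX these shares were 35.8% and 32.4%. With 3 genes, 2 of 3 is a description of these genes and no more.

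All 4 kinds of change in Mybl1, an upstream start, an internal start, a longer end and a skipped exon, were rarely seen in 1 gene. This combination, put together after the models of Mybl1 had been seen, held for 11 of 22428 genes (0.0490%), Mybl1 among them. Because it was made from Mybl1 itself, nothing is read from its rarity.

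In length, Mybl1 stood above its paralogs. Its longest model, of 5077 nt, was longer than that of 86.4% of genes, compared with 74.4% for Myb (3777 nt) and 73.4% for Mybl2 (3702 nt). The median over all genes was 2359 nt. The difference came with the CUFF models, since the RefSeq-derived model of Mybl1, at 3560 nt, was the shortest of the longest RefSeq-derived models of the 3 genes. For the last exon of the longest model, 2484 nt in Mybl1 exceeded 81.2% of genes, 1522 nt in Mybl2 64.6% and 1360 nt in Myb 60.8%. The genomic spans were alike, at 33072 bp for Mybl1, 36055 bp for Myb and 30053 bp for Mybl2, against a median of 15460 bp.

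**Figure D2:**
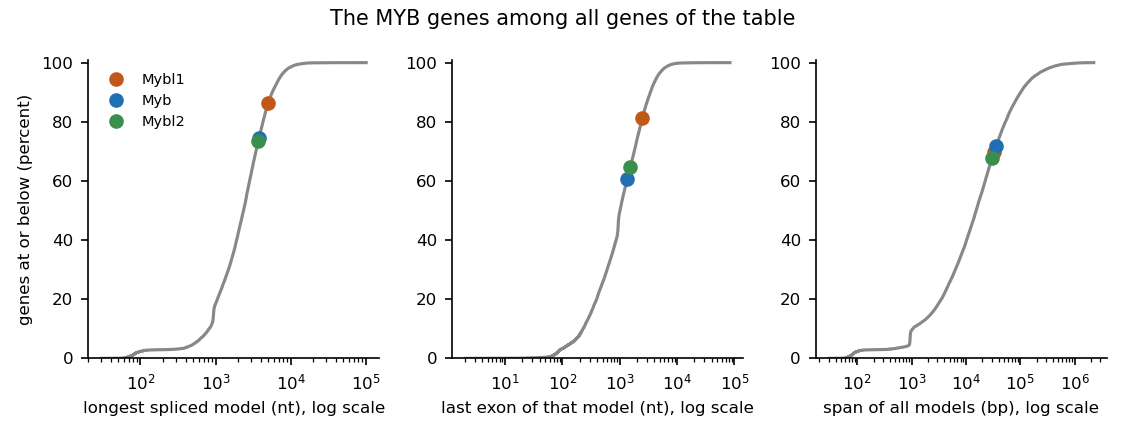
Cumulative share of all 22428 genes (percent, vertical axis) by spliced length of the longest model, length of its last exon and span of all models (log scales). Points mark Mybl1, Myb and Mybl2. Mybl1 lies above its paralogs for spliced length (5077 nt) and last exon (2484 nt) and between them for span (33072 bp).

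In the RefSeq-derived models, exons 3, 4 and 5 had exactly 72, 93 and 221 nt in Mybl1, in Myb and in Mybl2. Together they make 386 nt near the 5′ end of each transcript, and in this family the N-terminal part of the protein carries the DNA-binding repeats. The place of these exons within the repeats was not examined. Of 33188 models with at least 3 exons in the whole table, 8 held this run of lengths, and all 8 were MYB models: 3 of 3 for Mybl1, 2 of 2 for Myb and 3 of 4 for Mybl2. The MYB model without it was CUFF.15745.4, which starts downstream of all 3 exons. In Mybl1 the run was preceded by 381 nt of transcript in RefSeq, by 772 nt in CUFF.29.1 and by 128 nt in CUFF.29.2. In Mybl2 it was preceded by 308 nt in RefSeq and CUFF.15745.1 and by 245 nt in CUFF.15745.3, and in Myb by 407 nt in both models. The alternative starts of Mybl1 and the start of CUFF.15745.3 therefore changed the sequence before the run and left the run whole. No coding region is marked, so whether they change the protein is not known.

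**Figure D3:**
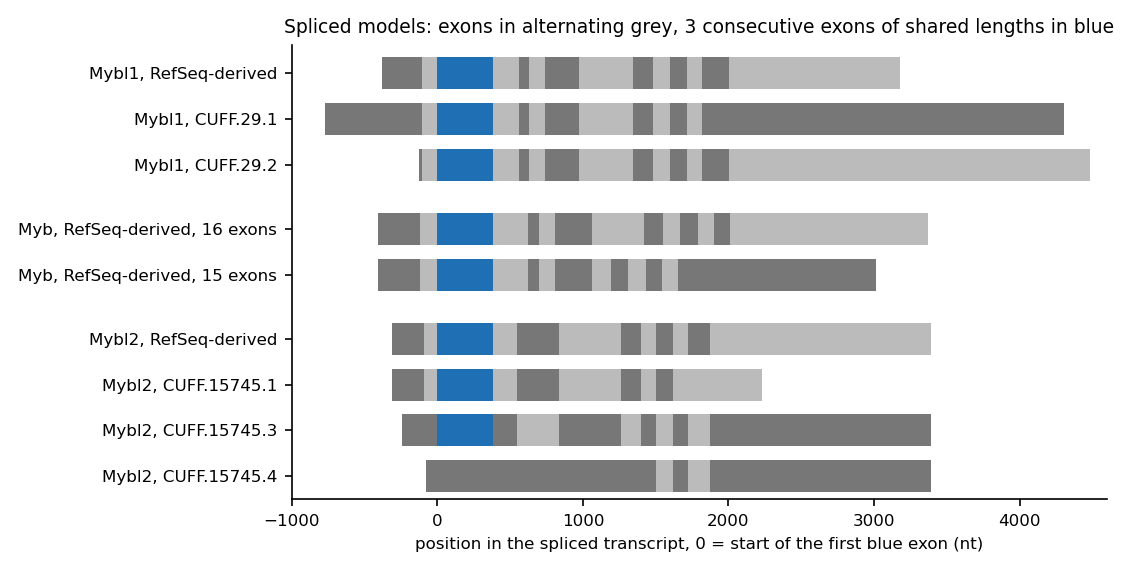
The 9 models drawn as spliced transcripts, in nt from the start of the 72 nt exon, with exons in alternating grey and the exons of 72, 93 and 221 nt in blue. CUFF.15745.4, which lacks these exons, is placed so that its 3′ end lies below that of the RefSeq-derived Mybl2 model. The sequence before the blue exons ranges from 128 to 772 nt, and the last exon is longest in the CUFF models of Mybl1.

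Mybl1 and the longer model of Myb matched exon for exon. Both had 16 exons, and of the 14 internal exons 5 were equal in length: exons 3, 4, 5, 8 (105 nt) and 12 (115 nt). The other 9 differed by up to 72 nt, and every difference was a multiple of 3, so that all 14 left the same remainder when divided by 3. Of 771 models with 16 exons, under 630 names, 3 had this series of 14 remainders: the RefSeq-derived model and CUFF.29.2 of Mybl1 and the longer model of Myb. The largest differences were in exon 15, the exon that CUFF.29.1 skips, with 180 nt in Mybl1 and 108 nt in Myb, and in exon 6, with 175 and 235 nt. Exon 10, which the shorter model of Myb leaves out, had 357 nt in Myb and 369 nt in Mybl1, where all 3 models kept it. The exon left out in Mybl1 and the one left out in Myb thus held different places in the same chain.

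Mybl2 had 12 internal exons. Paired by order from the 5′ end with those of Mybl1, 3 were equal in length and 8 in remainder, since the order slipped after exon 6. When lengths were aligned with gaps allowed, Mybl1 exons 7 and 8 (72 and 105 nt) had no counterpart in Mybl2, and the 12 remaining pairs all had equal remainders. In 4 pairs the lengths were equal, the fourth being Mybl1 exon 14 and Mybl2 exon 12, of 105 nt. Mybl1 exons 7 and 8, which this alignment left without a partner, are both divisible by 3. So are Mybl1 exons 9 and 10, and equal remainders alone therefore do not show which exons Mybl2 lacks. Aligned in the same way with Myb, Mybl2 again had 12 pairs of equal remainder and 3 of equal length. The alignment charged a cost for unequal remainders, and without that cost it paired the same numbers. The longest internal exons were also paired: exon 10 of Mybl1 (369 nt) and of Myb (357 nt) and exon 8 of Mybl2 (423 nt). An alignment by length favours such a pairing, and no sequence was compared.

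**Figure D4:**
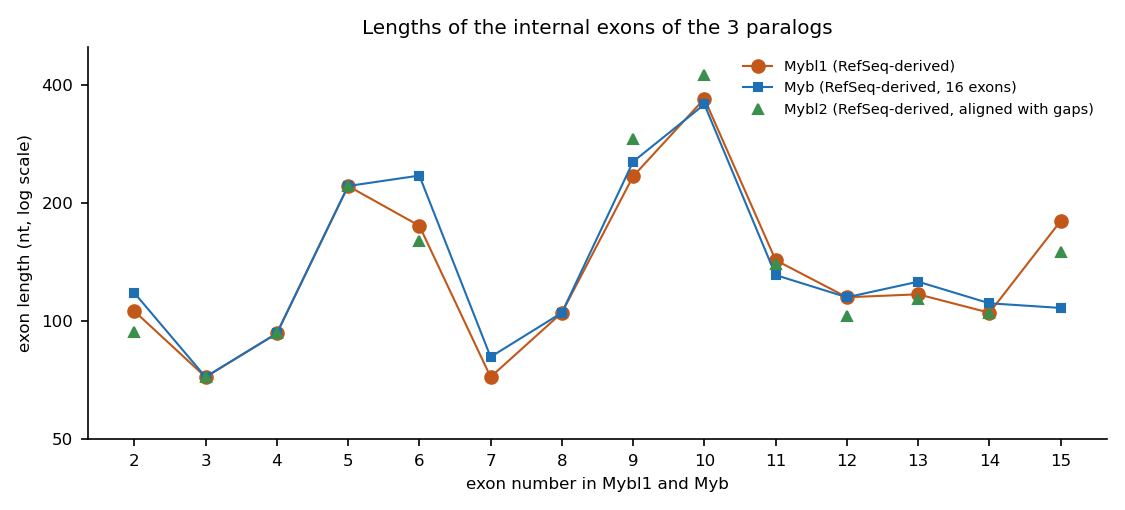
Length in nt (log scale) of the internal exons of the RefSeq-derived models, by exon number in Mybl1 and Myb, with Mybl2 exons at the place where the alignment with gaps put them. The points coincide at exons 3, 4 and 5 (72, 93 and 221 nt), and the genes spread at exons 6 and 15. The alignment by length put no Mybl2 exon at 7 and 8.

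Introns were less alike than exons. Compared by order between Mybl1 and the longer model of Myb, 9 of 15 introns were longer in Mybl1 and 6 in Myb, and 8 differed by more than 2-fold. The ratio of Mybl1 to Myb ranged from 0.12 for intron 15 (1566 and 13003 bp) to 9.78 for intron 4 (2299 and 235 bp). Myb had its longest intron at the 3′ end, just before the last exon. In Mybl1 and Mybl2 the longest was intron 1, of 6542 and 4652 bp. The internal starts of CUFF.29.2 and CUFF.15745.3 fell into this intron, and that of CUFF.15745.4 into intron 9 of Mybl2 (2011 bp).

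The MYB genes had no overlapping transcript and no head-to-head partner. No model started within 1000 bp upstream on the opposite strand of any MYB model, so that none of their starts, the CUFF starts included, was part of a divergent pair. Of all genes, 29.2% were overlapped by the span of a model of another name and 19.5% by its exons. The nearest model lay 20273 bp from Mybl1, 27224 bp from Myb and 2343 bp from Mybl2. Among 15868 genes without an overlap the median was 5860 bp, and the gap was smaller than that of Mybl1 for 78.2%, of Myb for 83.9% and of Mybl2 for 32.7%.

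Mybl1 had Vcpip1, a deubiquitinase gene on the same strand, upstream at that distance, and 2610203C22Rik, on the same strand, 36436 bp downstream. For Myb, the nearest upstream was CUFF.1871.1, a single exon of 388 nt on the opposite strand with no symbol, and Ahi1, a ciliary gene on the opposite strand, lay 44500 bp downstream. Mybl2 had Ift52, a gene of intraflagellar transport on the same strand, 8499 bp upstream. On its downstream side Gtsf1l, a relative of the piRNA pathway gene Gtsf1, faced it tail to tail across 2343 bp. The early end of CUFF.15745.1 lay further from Gtsf1l than the RefSeq end did.

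By the shape of its models, the gene most like Mybl1 was Pde4a, followed by Ahr and Rbbp4. Likeness was the distance over 7 standardised features: the numbers of models, starts, ends and exons, and the longest spliced length, span and last exon on a log2 scale. The distances were 0.231 for Pde4a, 0.339 for Ahr and 0.345 for Rbbp4, and each had 3 models, 3 starts and 2 ends as Mybl1 did. Mybl2 ranked 125 of 22427 genes (distance 1.123) and Myb 6441 (3.775). Myb stood far off through its single start and end, although its exon chain was the one that matched.

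Among the promoter sequences from RefSeq (GRCm38.p6) at hand, none was found for Mybl1. Those of Myb and Mybl2, 2 of the 3 genes, were found. They are shown because the family's own genes can be read for the AACNG core that MYB proteins bind and for letters that the paralogs have in common. The 250 bases before a RefSeq start are given 5′ to 3′ on the strand of the gene, for Myb chr10:21160985-21161234 (minus) and for Mybl2 chr2:163054385-163054634 (plus). They are tied to the RefSeq start of that build and not to the mm9 starts above. Capitals of 5 letters mark AACNG on either strand, and capitals of 10 letters mark runs that both promoters share.
Myb: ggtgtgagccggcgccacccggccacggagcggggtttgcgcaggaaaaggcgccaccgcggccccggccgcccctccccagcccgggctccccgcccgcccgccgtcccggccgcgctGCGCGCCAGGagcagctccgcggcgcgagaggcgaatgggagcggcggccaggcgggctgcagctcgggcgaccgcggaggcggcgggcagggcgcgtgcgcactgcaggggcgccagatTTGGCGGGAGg
Mybl2: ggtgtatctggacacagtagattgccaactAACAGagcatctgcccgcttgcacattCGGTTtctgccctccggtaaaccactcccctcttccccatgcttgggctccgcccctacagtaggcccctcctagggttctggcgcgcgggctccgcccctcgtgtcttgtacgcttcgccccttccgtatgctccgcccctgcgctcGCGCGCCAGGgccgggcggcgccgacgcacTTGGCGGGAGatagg

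Both promoters were rich in G and C. Myb had 81.2% GC and 40 CpG pairs in these 250 bases, more GC than 99.2% of 27025 genes. Mybl2 had 65.6% and 23, more GC than 84.2%. The medians were 52% and 6. Motifs were searched on both strands over these bases and the 50 after the start, and a gene was counted when any of its entries held a match. The TATA box TATAAA was in neither promoter and in 15.7% of genes. The CCAAT box, whose letters are its name, was in neither and in 41.1% of genes. The E box CACGTG was in neither and in 8.09% of genes. The CRE TGACGTCA was in neither and in 2.03% of genes. The cell cycle element TTTGAA, to which MuvB binds, was in neither and in 20.2% of genes. The GC box GGGCGG was found 3 times in Myb and 4 times in Mybl2, of which 0 and 1 lay on the strand of the gene, and in 38.2% of genes. Of the forms searched for E2F factors, GGCGCC was found 3 times in Myb, 1 time in Mybl2 and in 13.4% of genes. TTGGCGC was in neither and in 2.85% of genes.

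The MYB core AACNG was found 1 time in Myb, after the start, and 3 times in Mybl2, of which 2 lay before the start. The matches before the start of Mybl2 lay 220 to 216 and 193 to 189 bp upstream of it. So short a core is common, and 82.4% of genes had at least 1. The longer form TAACNG was found in Mybl2 and not in Myb, and in 25.9% of genes. The form AACGG was in neither, and in 19.6% of genes.

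The runs of 10 bases or more shared by Myb and Mybl2 were 2. TTGGCGGGAG lay 11 to 2 bp before the start of Myb and 15 to 6 bp before that of Mybl2, in the same direction and almost the same place. On either strand TTGGCGGGAG was found for 30 of 27025 genes (0.111%). As background, B-MYB is well known as a target of E2F factors, which control genes of the dividing cell. Whether E2F factors bind this run was not tested, and the searched form TTGGCGC was in neither promoter. GCGCGCCAGG lay 131 to 122 bp before the start of Myb and 45 to 36 bp before that of Mybl2, and was found for 80 genes (0.296%). These runs were looked for after the sequences were seen, and a match is a description of letters.

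Every gene of the lists that follow was in the table with a code other than XX. Of all genes with such a code, 39.4% had a CUFF model, 35.8% at least 2 starts and 32.4% at least 2 ends. Starts and ends were counted over RefSeq-derived and CUFF models together, so some genes with several had no CUFF model. MuvB and DREAM are the complexes that B-MYB joins or that hold its targets silent in resting cells. Among 13 MuvB and DREAM genes, 6 had a CUFF model (46.2%), 5 at least 2 starts (38.5%) and 8 at least 2 ends (61.5%). Tfdp2 and Tfdp1, the dimer partners of E2F factors, had 8 and 5 models with 3 and 4 starts, and both had 2 ends. Dyrk1a, the kinase that assembles DREAM, had 4 models with 4 starts and 2 ends, and Lin54, the DNA-binding subunit of MuvB, had 3 models with 2 of each. The median longest model of the list was 4365 nt.

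Among 10 cofactors and regulators of MYB proteins, 6 had a CUFF model (60%). The number with at least 2 starts and with at least 2 ends was also 6 (60% each). The coactivators Crebbp and Ep300, which bind MYB transactivation domains, had 3 models with 3 starts and 3 ends each. Fbxw7, a ubiquitin ligase subunit, had 5 models with 4 starts and 2 ends. Hipk2, a kinase, had 4 models with 4 starts and 4 ends, and a last exon of 11052 nt.

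Of 17 other genes with MYB-like or SANT repeats, 9 had a CUFF model (52.9%), 7 at least 2 starts (41.2%) and 8 at least 2 ends (47.1%). Mysm1, a histone deubiquitinase, and Zzz3 had 3 models with 2 starts and 2 ends. Rcor1, a corepressor, had 3 models with 3 starts and 2 ends, and Ncor1, another corepressor, had 2 of each.

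Genes of the piRNA pathway and meiosis known as A-MYB targets numbered 20, of which Meioc was found under its older symbol Gm1564. A CUFF model was present for 10 (50%), at least 2 starts for 9 (45%) and at least 2 ends for 7 (35%). Ccnb3, a meiotic cyclin, had 4 models with 3 starts and 4 ends. Rnf17, a Tudor protein, had 3 models with 3 starts and 2 ends. Piwil1, the PIWI protein of pachytene cells, and Gm1564, a regulator of meiotic prophase, had 2 models with 2 starts and 2 ends.

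Of 17 transcription factors of the testis, 11 had a CUFF model (64.7%), 10 at least 2 starts (58.8%) and 8 at least 2 ends (47.1%). The CREB-related factor Crem, active in spermatids, had 3 starts and 2 ends over 11 models, all of them RefSeq-derived. Rfx2 and Rfx4, of the family that drives ciliary genes, had 3 models with 2 starts and 2 ends each, and Hsf2, a heat shock factor, had 2 of each. These lists can be read against the 39.4%, 35.8% and 32.4% of coded genes with a CUFF model, at least 2 starts and at least 2 ends. Their genes were longer: median longest models ranged from 2623 to 4696 nt over the lists, against 2359 nt over all genes. Median exon numbers ranged from 9 to 16, against 6. Whether length bears on the shares was not tested. No list was tested.

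The promoters of the A-MYB target list were read for the same letters. Promoter entries were found for 16 of its 20 genes. The core AACNG was in 14 of 16 (87.5%), TAACNG in 8 (50%) and AACGG in 9 (56.2%), where 81.4%, 24% and 21.6% of the 15396 genes of the table with an entry had them. For the MuvB and DREAM genes AACGG was in 2 of 9 (22.2%), and for the cofactors in 1 of 9 (11.1%). It was in 8 of 15 genes with MYB-like or SANT repeats (53.3%) and in 6 of 13 testis factors (46.2%). AACGG contains a CpG. The median number of CpG pairs in the 250 bases was 24 for the MuvB and DREAM genes and 25 for the cofactors. It was 21 for the genes with repeats, 13.5 for the targets and 20 for the testis factors. For all genes of the table with an entry it was 11. Whether CpG content bears on the shares with AACGG was not tested. TAACNG was in 3 of 9 MuvB and DREAM genes, 2 of 9 cofactors, 4 of 15 genes with repeats and 5 of 13 testis factors. For a target list of 16 genes these are counts of letters and show no binding.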

How the data were processed

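The series held CAGE and PAS-Seq libraries of mouse testis, 3 in all, 1 per group, and 1 deposited table of 12 columns with 50081 assembled transcript models. Its values are positions and exon numbers. TopHat2 (2.0.4) and the mm9 build are named in the submitters' processing notes. The sources used here do not say how models were assembled. Models were grouped by symbol, chromosome and strand. Starts and ends within 50 nt were counted as 1. An exon or intron was shared when both ends were identical. Internal exons were paired by order from the 5′ end and, as an alternative, aligned by length with gaps (gap cost 4, cost of 1 for an unequal remainder). Models with other names, partners within 500 bp, promoter motifs and list shares were counted with Python 3.11.15. Functions were tested on simulated data. With no replicates there was no test over samples, no p-value is given, and the depth is unknown.

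The members and lists were chosen with earlier results of these data known. Named genes were the members, their neighbours, the 3 genes most like Mybl1 and, from each list, at most 4 with at least 2 starts and 2 ends, most models first. Symbols and promoters came from RefSeq tables of GRCm38.p6. No protein sequence was used, so the planned comparison of proteins was not run, and neither was that of coding parts of exons, since the table marks no coding region.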

Additional observations from a re-analysis of the deposited data

How the results depend on the processing

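Starts, ends, shifts, shared exons and introns, overlaps and partners of the MYB genes gave 59 values under other settings (tolerances of 0, 10 and 200 nt, multi-exon models, all overlapping models, outermost RefSeq ends, exon ends within 10 nt, other distances), and 0 of them changed. Part of these values could not change. All MYB models had more than 1 exon, and no model of another name overlapped them. Mybl1 and Mybl2 each had 1 RefSeq-derived model, and both Myb models shared their start and end. The pairing of exons mattered for Mybl2. Paired from the 3′ end, 1 exon was equal in length and 7 in remainder between Mybl1 and Mybl2, and 0 and 7 between Myb and Mybl2. Aligned with gaps, with or without the remainder cost, the equal remainders were 12 for both and the equal lengths 4 for Mybl1. The pairings by order set chains of unequal exon number side by side. The percent of genes below Mybl1 was 78.6 for models, 82.8 for spliced length and 77.9 for the last exon among genes with a code other than XX, and 83.5, 85.4 and 80.5 among genes with an NM identifier. With the model of most exons it was 84.1 for spliced length and 82.7 for the last exon. Matches of AACNG fell to 0 in Myb and 2 in Mybl2 before the start only, and to 0 and 1 on the strand of the gene only. Those of the GC box also fell to 0 and 1 on that strand, and stayed at 3 and 4 before the start only. Over all genes, at least 2 starts were found for 30.1% and at least 2 ends for 25.5% with exact positions, and for 22.6% and 19.7% at 200 nt. In the lists, MuvB and DREAM genes with at least 2 ends went from 61.5% to 46.2% at 200 nt. Testis factors with at least 2 starts went from 58.8% to 70.6% with exact positions and 47.1% at 200 nt. A-MYB targets with at least 2 ends went from 35% to 45% with exact positions. The other list shares moved less. The alignment without the remainder cost and the shared runs were added after seeing the data. No paired analysis was possible because each group held 1 library and no value per library was used. The depth of the libraries is unknown and limits every statement on missing models.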
